A study of Mus musculus with 2 samples.

Results

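The antigen presentation genes described here are 46 of the 28693 genes counted in mouse pituitary cells. They are all genes whose symbol starts with H2-, plus 12 partners: B2m, Cd74, Ciita, Nlrc5, Tap1, Tap2, Tapbp, Psmb8, Psmb9, Psmb10, Psme1 and Psme2. The rule goes by name and uses no measured value. The animals were males of the inbred strain C57BL/6, aged 7 weeks and housed singly, with no mutation or treatment named. Pituitaries were dispersed with collagenase and trypsin in 2 pools of 3 glands each, and each pool gave 1 library of droplet-based 3′ single-cell RNA sequencing. The libraries, called library 1 and library 2 after the pool number, were the only replicates. The p-values below therefore rest on how differences between cell classes varied between the 2 pools, with the spread shared over 12 classes. The spread of each gene was also borrowed in part from the other genes tested, so a very small p-value does not come from that gene alone. These p-values do not measure the spread between single animals.

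Antigen presentation shows fragments of a cell's proteins to T cells. In class I presentation, the proteasome cuts cytosolic proteins, the Tap1 and Tap2 transporter carries the peptides into the endoplasmic reticulum, tapasin (Tapbp) helps to load them, and a heavy chain paired with beta-2 microglobulin (B2m) carries them to the surface of almost any nucleated cell. In class II presentation, paired alpha and beta chains are held by the invariant chain (Cd74) until they reach endosomes, where H2-DM exchanges it for peptides taken up from outside. Class II is known mainly from dendritic cells, B cells and macrophages, and some epithelial and endothelial cells make it when exposed to interferon gamma. C57BL/6 mice are known to lack the alpha chain of the second class II molecule, I-E, although its beta chain gene H2-Eb1 is transcribed.

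By role, the 46 members held 2 classical class I heavy chains (H2-K1 and H2-D1), the light chain B2m, 22 other class I heavy chains, 3 genes of peptide transport and loading, 5 subunits or regulators of the immunoproteasome, Cd74, 4 class II chains, 5 genes of class II peptide exchange and 2 transactivators. H2-Ke6 entered by its name alone: it encodes an enzyme of the steroid dehydrogenase family and is not known to present antigen. In the mm10 annotation, 39 of the 46 lay on chromosome 17 between positions 33915899 and 37483552, the major histocompatibility complex of the mouse. A UMI, the molecular tag that counts each captured transcript once, was seen for 39 members, and the 7 members with none were H2-M1, H2-M9, H2-M10.3, H2-M10.4, H2-M10.5, H2-M10.6 and H2-M11. The 28 members described by name either reached 50 CPM, the UMI count scaled to a common total, in at least 1 cell class or belonged to the core of the pathway. The other 18 ranged from 0 to 47.3 CPM in their highest class; H2-Oa, H2-Ob, H2-Eb2 and H2-M2 among them are named below after their values were seen. Many class I heavy chains are near-identical copies of each other, and the sources used here do not say how reads matching several of them were counted, so levels of single H2-Q and H2-T genes are uncertain.

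The promoter elements best known for these genes were looked up in RefSeq windows (GRCm38.p6) of 39 members. Each window ran from 250 bases before to 50 bases after the gene start. The windows of Cd74 and H2-Ab1 were not searched, so the counts of class I and class II genes below cover neither. The kappaB site was searched as GGGGNTTCC, the core of the interferon-stimulated response element as GAAANNGAAA, and the class II arrangement as the X box core AGNNACNG followed by the Y box ATTGG with 17 to 37 bases between them, all on both strands. Printed, with capitals on the matches, are windows of members that held a match and whose levels are described below. H2-K1 (chr17:34000284-34000583, minus strand) and H2-D1 (chr17:35262844-35263143, plus strand) held the kappaB site, and B2m (chr2:122147437-122147736, plus strand) held the interferon element.
H2-K1: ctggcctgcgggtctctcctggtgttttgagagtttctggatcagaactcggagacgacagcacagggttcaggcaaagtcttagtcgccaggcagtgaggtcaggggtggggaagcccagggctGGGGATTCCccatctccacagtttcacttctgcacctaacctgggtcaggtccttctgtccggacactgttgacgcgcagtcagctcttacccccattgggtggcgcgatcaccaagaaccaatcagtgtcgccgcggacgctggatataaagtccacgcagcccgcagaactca
H2-D1: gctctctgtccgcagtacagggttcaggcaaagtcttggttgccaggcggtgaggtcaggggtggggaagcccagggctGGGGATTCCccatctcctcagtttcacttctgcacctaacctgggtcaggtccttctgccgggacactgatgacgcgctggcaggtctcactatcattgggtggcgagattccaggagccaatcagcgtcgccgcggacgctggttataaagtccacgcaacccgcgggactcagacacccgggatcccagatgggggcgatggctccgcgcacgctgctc
B2m: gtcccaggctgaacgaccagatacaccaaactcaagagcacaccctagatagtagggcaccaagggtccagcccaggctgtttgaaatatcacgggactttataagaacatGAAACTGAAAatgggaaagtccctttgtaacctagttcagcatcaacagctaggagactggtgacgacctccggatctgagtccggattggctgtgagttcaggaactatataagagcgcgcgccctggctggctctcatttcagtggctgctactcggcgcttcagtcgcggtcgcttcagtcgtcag
H2-Eb1 (chr17:34305617-34305916, plus strand) held the X and Y boxes, with a further match on the opposite strand, and H2-DMb1 (chr17:34152941-34153240, plus strand) held them once.
H2-Eb1: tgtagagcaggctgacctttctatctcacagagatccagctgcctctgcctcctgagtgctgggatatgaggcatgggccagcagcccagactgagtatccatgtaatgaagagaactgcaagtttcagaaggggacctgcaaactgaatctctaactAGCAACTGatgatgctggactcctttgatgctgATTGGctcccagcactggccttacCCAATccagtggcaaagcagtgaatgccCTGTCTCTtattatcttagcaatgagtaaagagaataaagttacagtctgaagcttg
H2-DMb1: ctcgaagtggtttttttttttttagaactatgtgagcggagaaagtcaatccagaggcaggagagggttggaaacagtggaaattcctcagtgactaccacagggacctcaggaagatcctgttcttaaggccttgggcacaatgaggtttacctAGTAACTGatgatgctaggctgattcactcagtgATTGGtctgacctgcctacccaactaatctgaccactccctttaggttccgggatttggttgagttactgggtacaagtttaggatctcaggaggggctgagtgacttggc
A gene was counted if any of its windows held a match, while the share over all promoters is per window. The kappaB site was in 4 of the 23 class I chain genes (H2-D1, H2-K1, H2-Q6 and H2-Q7). It was in none of the 8 class II genes and in 1.69% of all 32851 promoter windows. The interferon element was in 3 of the 23 class I genes (B2m, H2-T22 and H2-T23). It was in none of the 8 class II genes and in 3.44% of all windows. The X and Y boxes at this spacing were in 3 of the 8 class II genes (H2-DMb1, H2-Eb1 and H2-Eb2). They were in none of the 23 class I genes and in 1.07% of all windows. The Y box letters alone were in 20 of the 23 class I genes, in all 8 class II genes, and in 37.41% of all windows. A match describes these letters and shows no binding. A window without a match may still hold a variant of the element, because only these letters were searched.

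Library 1 held 6546 cell barcodes and 70813117 UMIs, and library 2 held 7117 barcodes and 78861988 UMIs. The libraries shared 54 barcode sequences. After removal of low-quality cells and likely doublets, 6011 and 6523 cells remained, with a median of 5097 and 5314 UMIs outside the 7 hormone genes. Cell classes were built from 116 marker genes, none of them a member, and are named "-like" after those markers. The tests used the 12 classes that held 20 or more cells in both libraries, and 5 of them were hormone classes: somatotrope-like (3230 and 3253 cells), lactotrope-like (1497 and 1804), gonadotrope-like (299 and 298), corticotrope-like (252 and 313) and melanotrope-like (114 and 141). The others were stem-like (175 and 168), endothelial-like (129 and 152), cycling-like (117 and 119), fibroblast-like (79 and 92), macrophage-like (42 and 73), red-cell-like (39 and 42) and pituicyte-like (22 and 35). The red-cell-like class also held endothelial genes among its leading genes (Igfbp3, Plvap and Emcn), and the 28 thyrotrope-like cells were too few in library 1 to enter a test. Levels are CPM of each class's summed UMIs outside the hormone genes, which take a large and unequal part of the total in hormone cells.

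Class I and class II transcripts were distributed over different classes of cell. The summed level of class I heavy chains and B2m was 16971 and 16819.5 CPM in libraries 1 and 2 of macrophage-like cells and 16628 and 17272 CPM in endothelial-like cells. It was 4339 and 4829.7 CPM in fibroblast-like cells, 3597 and 3326 CPM in stem-like cells, 2619.7 and 2504 CPM in red-cell-like cells, and 1692 and 1802 CPM in pituicyte-like cells. Macrophage-like and endothelial-like cells overlapped, and these 6 classes all lay above every hormone class. The hormone classes had 1519 and 1347 CPM in somatotrope-like cells, 805 and 796 CPM in lactotrope-like cells, 753 and 725 CPM in corticotrope-like cells, 735 and 726 CPM in melanotrope-like cells, and 639 and 694 CPM in gonadotrope-like cells. Cycling-like cells, at 1466 and 1024 CPM, overlapped with somatotrope-like cells, and corticotrope-like and melanotrope-like cells overlapped with each other.

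The summed level of the 4 class II chains and Cd74 had another order. Macrophage-like cells had 32528 and 57833 CPM, stem-like cells 642 and 632 CPM, and endothelial-like cells 215 and 447 CPM. The other 9 of the 12 classes lay between 8.55 and 50.3 CPM in either library. The log2 ratio of class I over class II was -1.36 ± 0.60 in macrophage-like cells, 2.44 ± 0.06 in stem-like cells, 5.77 ± 0.71 in endothelial-like cells and 8.34 ± 0.02 in fibroblast-like cells (SD, n = 2 libraries each). Of the 12 classes, macrophage-like cells alone held more class II than class I transcripts in both libraries. Stem-like cells had the next lowest ratio, below that of every hormone class, whose mean ratios ranged from 4.18 in melanotrope-like to 5.93 in gonadotrope-like cells. Most class II UMIs of melanotrope-like cells came from H2-Eb2, described below. These sums and ratios describe the classes and carry no test.

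**Figure D1:**
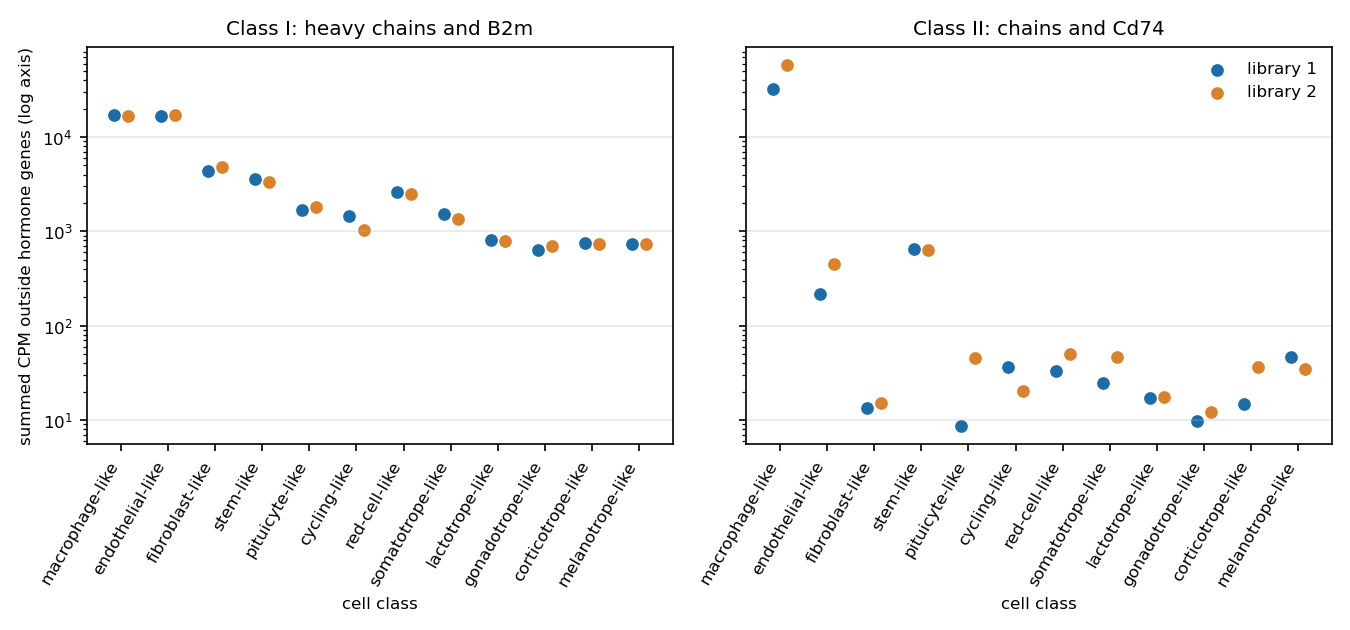
Summed CPM of class I heavy chains and B2m and of class II chains and Cd74 in 12 cell classes on log axes, with 1 point per library. Class I was 16971 and 16819.5 CPM in macrophage-like and 16628 and 17272 CPM in endothelial-like cells, while class II stood at 32528 and 57833 CPM in macrophage-like and 642 and 632 CPM in stem-like cells.

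**Figure D2:**
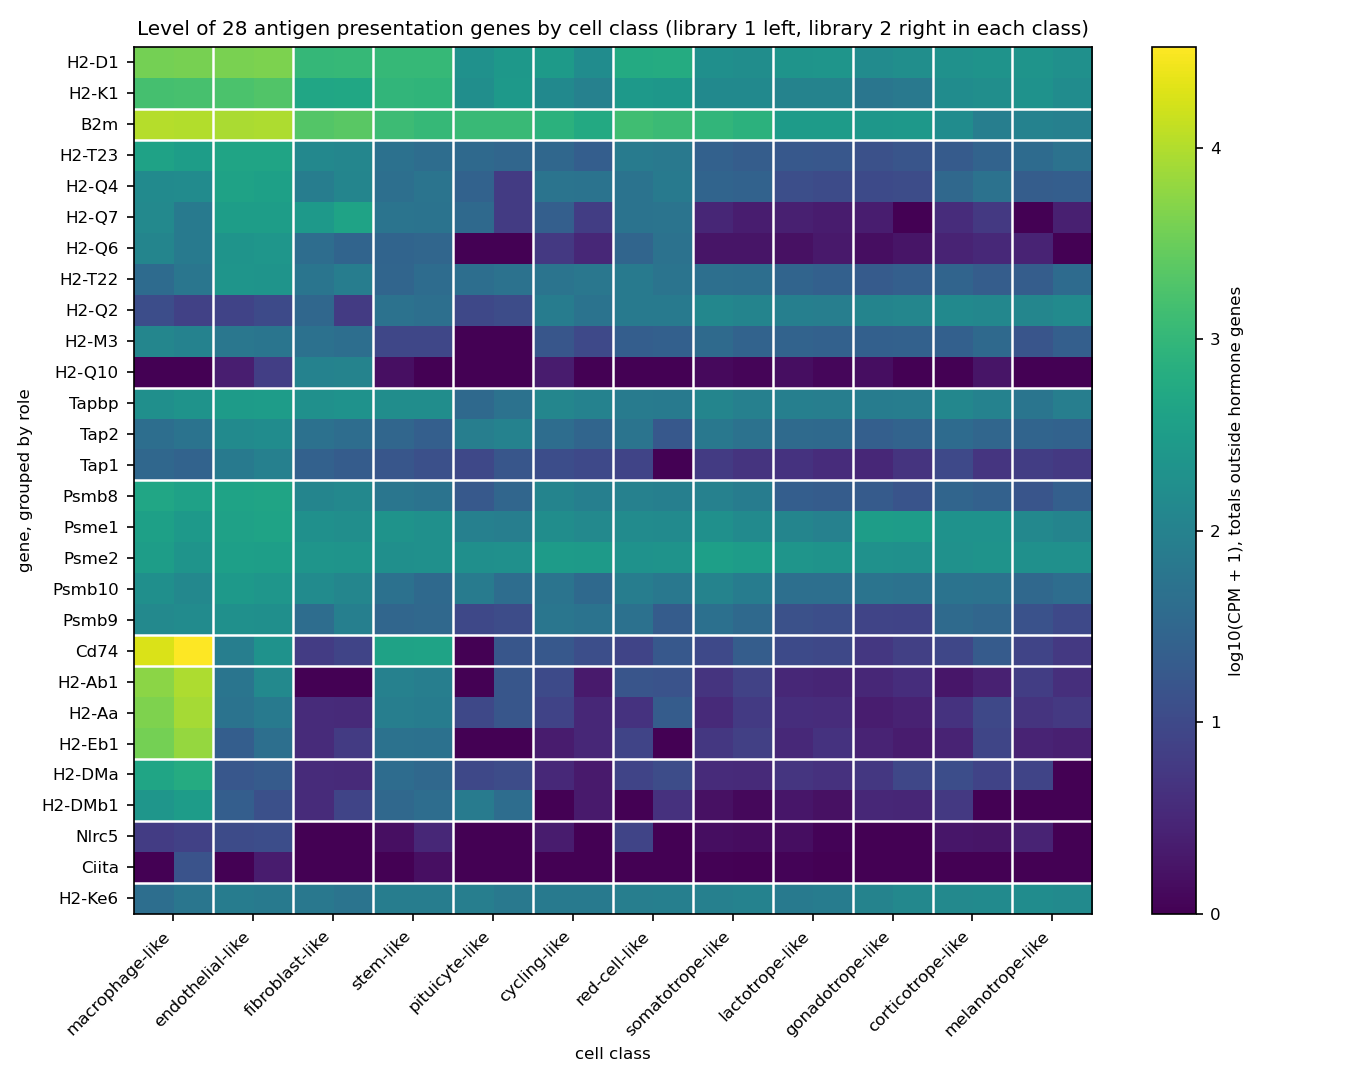
Level of the 28 members described by name, as log10 of CPM plus 1, in 12 cell classes with both libraries side by side, grouped by role. B2m, H2-D1 and H2-K1 are highest in macrophage-like and endothelial-like cells, H2-Q10 in fibroblast-like cells and H2-Q2 in hormone classes, while Cd74, H2-Aa, H2-Ab1 and H2-Eb1 are highest in macrophage-like cells.

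The light chain B2m (chr2:122147686-122153083, plus strand) was the most abundant class I transcript. It had 10548 and 10341 CPM in macrophage-like cells, 8985 and 9249 CPM in endothelial-like cells, 2047 and 2357 CPM in fibroblast-like cells, 1274 and 1083 CPM in stem-like cells, and 1179.6 and 1157 CPM in pituicyte-like cells, against 942 and 816 CPM in somatotrope-like cells and 86.0 to 302 CPM in the other hormone classes. H2-D1 (chr17:35262730-35267499, plus strand) had 3853 and 4032 CPM in macrophage-like cells, 4152 and 4394 CPM in endothelial-like cells, 1047 and 1068 CPM in fibroblast-like cells, 1092 and 1059 CPM in stem-like cells, against 153 to 226 CPM over the hormone classes. The values of these classes did not overlap those of any hormone class. H2-K1 (chr17:33996017-34000347, minus strand) had 1573 and 1643 CPM in macrophage-like cells, 1786 and 1953 CPM in endothelial-like cells, 472 and 495 CPM in fibroblast-like cells, 967 and 917 CPM in stem-like cells, against 59.5 to 199 CPM over the hormone classes, again with no overlap. Between stem-like and fibroblast-like cells, H2-K1 was the more abundant in stem-like cells and B2m in fibroblast-like cells, in both libraries, and this pair was not tested.

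Tested with edgeR (quasi-likelihood, Benjamini-Hochberg adjustment over 12092 genes) against the mean of the 5 hormone classes, the log2 fold change of B2m was 5.45 ± 0.10 in macrophage-like cells (SE, adjusted p = 6.4e-16), 5.25 ± 0.09 in endothelial-like cells (adjusted p = 2.81e-16), 3.21 ± 0.11 in fibroblast-like cells (adjusted p = 3.97e-12), 2.30 ± 0.11 in stem-like cells (adjusted p = 4.9e-11) and 2.29 ± 0.17 in pituicyte-like cells (adjusted p = 7.02e-08). H2-K1 rose by 3.72 ± 0.09 in macrophage-like cells, 3.93 ± 0.07 in endothelial-like cells and 2.94 ± 0.07 in stem-like cells on the log2 scale (adjusted p = 1.46e-62, 7.81e-75 and 2.38e-63). H2-D1 rose by 4.37 ± 0.10 in macrophage-like cells, 4.48 ± 0.08 in endothelial-like cells and 2.49 ± 0.09 in stem-like cells (adjusted p = 4.27e-19, 1.18e-20 and 1.52e-15). In pituicyte-like cells H2-K1, at 171 and 284 CPM, rose by 0.97 ± 0.18 (adjusted p = 1.05e-05), while H2-D1, at 197 and 259 CPM, did not pass the test (adjusted p = 0.452). In macrophage-like cells the median log2 fold change of all genes tested was -1.15, and B2m lay 6.60 above that median; it was -0.61 with TMM scaling and -0.09 in DESeq2.

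Of the 46 members, 28 passed the filter on low counts and were tested in each comparison. A member that passes because it is abundant in a single class had to differ there, so the counts describe the members and support nothing further. Endothelial-like cells had 24 members higher and 2 lower than the hormone classes, where 58.2% of all genes tested were called, 27.9% higher and 30.2% lower. Macrophage-like cells had 22 higher and 2 lower, where 49.9% of all genes tested were called, 11.9% higher and 38.0% lower. Stem-like cells had 18 higher and 5 lower, where 58.1% of all genes tested were called, 34.3% higher and 23.8% lower, and fibroblast-like cells had 16 higher and 2 lower, where 36.6% of all genes tested were called, 20.2% higher and 16.4% lower. Pituicyte-like cells had 5 higher and 4 lower, where 20.7% of all genes tested were called, 13.5% higher and 7.21% lower, and 4 higher and 6 lower with trimmed-mean (TMM) scaling (22.9% of all genes called, 10.8% higher and 12.2% lower). The median log2 fold change of the members tested was 3.73 in endothelial-like cells (-0.13 over all genes tested), 3.42 in macrophage-like cells (-1.15 over all), 1.01 in stem-like cells (0.10 over all), 1.22 in fibroblast-like cells (-0.09 over all) and -0.02 in pituicyte-like cells (-0.01 over all).

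**Figure D3:**
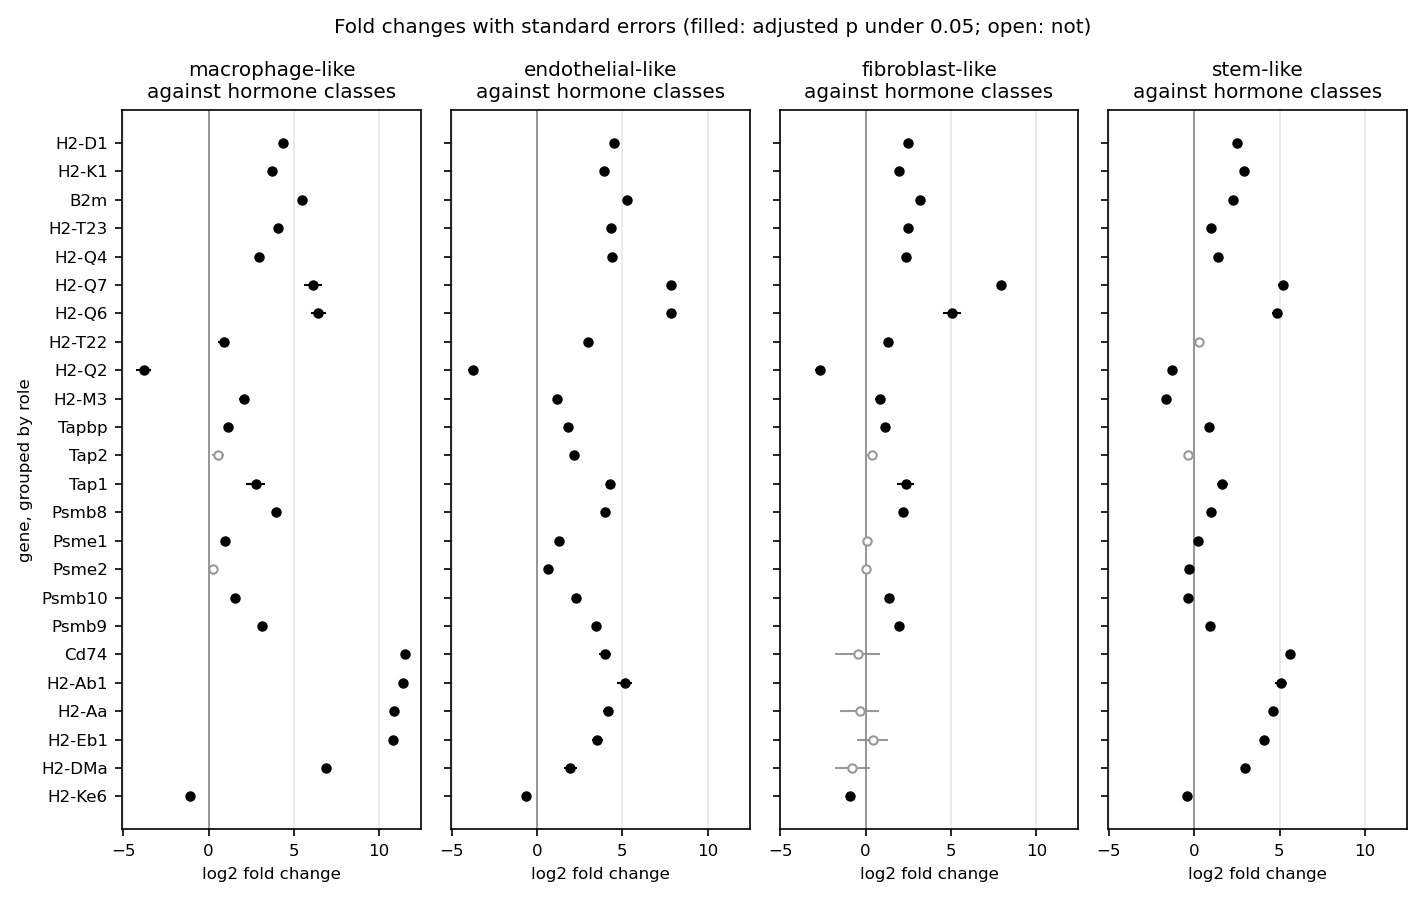
Log2 fold change with its standard error for 24 members in macrophage-like, endothelial-like, fibroblast-like and stem-like cells, each against the mean of the 5 hormone classes; filled points passed an adjusted p of 0.05. Class II genes lie farthest to the right in macrophage-like cells, up to 11.50 for Cd74, and the value of H2-Q2 is below 0 in all 4 classes.

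The other class I heavy chains did not move as a block. H2-T23, which encodes Qa-1, a ligand of receptors on natural killer cells, had 412 and 335 CPM in macrophage-like cells and 443 and 441 CPM in endothelial-like cells, against 12.1 to 50.2 CPM in the hormone classes, and rose by 4.07 ± 0.17 and 4.33 ± 0.11 (adjusted p = 3.15e-40 and 2.71e-60). H2-Q7, which encodes the Qa-2 antigen, had 331 and 330.1 CPM in endothelial-like cells, 283 and 415 CPM in fibroblast-like cells and 53.7 and 51.3 CPM in stem-like cells, against at most 4.69 CPM in any hormone class. Its levels in endothelial-like and fibroblast-like cells overlapped. H2-Q10, known as a secreted class I chain of the liver, had 101 and 106 CPM in fibroblast-like cells (38 and 42 UMIs) and at most 5.85 CPM in either library of the other 11 classes.

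H2-Q2 ran the other way. It had 10.7 and 6.64 CPM in macrophage-like cells, 7.16 and 9.36 CPM in endothelial-like cells and 50.1 and 44.3 CPM in stem-like cells, against 85.8 to 148 CPM in the hormone classes, with no overlap. It fell by 3.79 ± 0.45 in macrophage-like cells (adjusted p = 6.98e-12), by 3.77 ± 0.26 in endothelial-like cells (adjusted p = 2.47e-24) and by 1.29 ± 0.11 in stem-like cells (adjusted p = 4.48e-18) on the log2 scale. H2-M3, which presents N-formylated peptides, had 118 and 99.6 CPM in macrophage-like cells and rose by 2.08 ± 0.26 (adjusted p = 7.14e-11), but fell by 1.63 ± 0.25 in stem-like cells, at 8.34 and 8.10 CPM (adjusted p = 1.06e-08). Of the 12 classes, H2-M2 had UMIs in macrophage-like cells alone, 5 and 3 of them.

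In endothelial-like cells, all 3 member genes of peptide transport and loading and all 5 immunoproteasome genes were higher than in the hormone classes. Tap1, a subunit of the peptide transporter, had 73.1 and 92.5 CPM there, against 2.24 to 9.14 CPM in the hormone classes, and rose by 4.29 ± 0.24 (adjusted p = 3.1e-31). Tap2, its partner, had 146 and 159 CPM, against 22.4 to 62.9 CPM, and rose by 2.19 ± 0.14 (adjusted p = 2.59e-26). Psmb8, a catalytic subunit of the immunoproteasome, had 482 and 388 CPM in macrophage-like cells, 418 and 438 CPM in endothelial-like cells and 57.9 and 52.4 CPM in stem-like cells, against 13.7 to 97.7 CPM in the hormone classes. It rose by 3.98 ± 0.16, 3.98 ± 0.10 and 1.01 ± 0.14 in those 3 classes (adjusted p = 8.87e-42, 1.5e-59 and 5.25e-10). In stem-like cells Psmb10 instead fell by 0.36 ± 0.14 (adjusted p = 0.0167), at 47.5 and 34.5 CPM, a call that was lost with doublet calls kept (-0.10, adjusted p = 0.521). Psmb9 and Tap1 overlap on opposite strands, as do B2m and Patl2, and the sources used here do not say whether counting used the strand, so such values may share reads.

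The remaining abundant class I genes had the same direction in endothelial-like cells, with unequal sizes. H2-Q4 had 411 and 376 CPM in endothelial-like cells, against 9.39 to 50.1 CPM in the hormone classes, H2-Q6 had 223 and 239 CPM, against 0 to 2.35 CPM, and H2-T22, a ligand of gamma delta T cells, had 226 and 215 CPM, against 19.2 to 43.5 CPM. Tapasin (Tapbp), which holds class I chains at the transporter, had 307 and 317 CPM in endothelial-like cells, against 57.7 to 125 CPM in the hormone classes. Psmb9 and Psmb10, the other catalytic subunits of the immunoproteasome, had 183 and 183 CPM and 271 and 241 CPM in endothelial-like cells, against 7.07 to 45.6 CPM and 33.5 to 106 CPM in the hormone classes. The smallest of the called changes among these genes was that of Psme2, a PA28 subunit, which had 358 and 341 CPM in endothelial-like cells, against 184 to 356 CPM in the hormone classes, and rose by 0.65 ± 0.09 (adjusted p = 4.28e-10), with its levels overlapping those of somatotrope-like cells.

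Macrophage-like cells were set directly against endothelial-like cells. B2m (adjusted p = 0.3), H2-K1 (adjusted p = 0.0816) and H2-D1 (adjusted p = 0.521) did not pass edgeR's test, which does not show that they are equal. Cd74 was higher in macrophage-like cells by 7.50 ± 0.28 (adjusted p = 3.31e-10) and H2-DMa by 4.95 ± 0.25 (adjusted p = 1.51e-33). Tap2 fell by 1.63 ± 0.29 (adjusted p = 1.89e-06), with 42.8 and 53.1 CPM in macrophage-like cells against 146 and 159 CPM in endothelial-like cells, and did not pass in DESeq2 (-0.84, adjusted p = 0.0625). In all, 8 members were higher and 9 lower, where 36.5% of all genes tested were called, 7.07% higher and 29.4% lower. This split depended on the scaling, since the median of all genes tested was -0.95: it was 11 higher and 5 lower with TMM scaling (median -0.38; 23.9% of all genes called, 9.98% higher and 13.9% lower), and 12 higher and 2 lower in DESeq2 (median -0.03; 19.2% of all genes called, 11.6% higher and 7.6% lower). Relative to the median of all genes in edgeR, Tap2 lay at -0.68 and Cd74 at 8.45.

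Of the 12 classes, macrophage-like cells had the highest levels of Cd74, H2-Aa, H2-Ab1 and H2-Eb1. Cd74, the invariant chain (chr18:60803848-60812652, plus strand), had 18806 and 33715 CPM there, against 4.47 to 20.7 CPM over the hormone classes. The alpha chain gene H2-Aa had 4528 and 8114 CPM, the beta chain gene H2-Ab1 had 5437 and 9468 CPM, and H2-Eb1 had 3757 and 6535 CPM. Library 2 was the higher for each of these 4 genes. Log2 fold changes were 11.50 ± 0.17 for Cd74 (adjusted p = 9.1e-15), 10.86 ± 0.11 for H2-Aa (adjusted p = 1.68e-41), 11.39 ± 0.19 for H2-Ab1 (adjusted p = 1.04e-13) and 10.78 ± 0.11 for H2-Eb1 (adjusted p = 2.9e-85), and that of Cd74 lay 12.65 above the median of all genes. H2-DMa and H2-DMb1, which encode the H2-DM chains, had 455 and 601 CPM and 235 and 319 CPM. H2-Oa and H2-Ob, whose products form the H2-DM inhibitor H2-O, known best from B cells, had 48.2 and 46.5 CPM (9 and 14 UMIs) and 10.7 and 9.96 CPM (2 and 3 UMIs).

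Markers of other cell types were counted in macrophage-like cells. The 5 B cell markers summed to 80.3 and 39.8 CPM there, with 3 of 5 detected, against 50.2 and 52.0 CPM in somatotrope-like cells, and the 8 dendritic cell markers to 230.1 and 186 CPM, with Flt3, Xcr1 and Cd209a at 0. Library 1 held more red cell and endothelial transcripts: the 5 red cell markers summed to 18453 and 1145 CPM and the 8 endothelial markers to 653 and 9.96 CPM in libraries 1 and 2. Their part in the class II values was not tested. Class II also varied from cell to cell. A total of 27 of 42 macrophage-like cells in library 1 and 52 of 73 in library 2 held at least 10 class II UMIs, while 8 and 12 cells held none, and the median cell held 26 and 159. The class I sums, 16971 and 16819.5 CPM, and the summed macrophage markers, 38148 and 37900.3 CPM, were close between the libraries.

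Stem-like cells, marked by Sox2 and held to renew the gland, had the next highest class II sum. Cd74 had 412 and 419 CPM in stem-like cells, against 4.47 to 20.7 CPM in the hormone classes. H2-Ab1 had 96.5 and 86.4 CPM in stem-like cells, against 0.914 to 6.81 CPM. H2-Aa had 85.0 and 78.8 CPM in stem-like cells, against 1.34 to 8.60 CPM. For each gene, both libraries of stem-like cells lay above every hormone class and close to each other. H2-Eb1 had 49.0 and 47.0 CPM in stem-like cells, against 1.25 to 7.82 CPM, and H2-DMa had 38.6 and 32.9 CPM, against 0 to 10.97 CPM. Log2 fold changes were 5.59 ± 0.22 for Cd74 (adjusted p = 1.45e-10), 5.09 ± 0.33 for H2-Ab1 (adjusted p = 5.88e-08), 4.64 ± 0.20 for H2-Aa (adjusted p = 1.65e-21), 4.07 ± 0.22 for H2-Eb1 (adjusted p = 5.05e-30) and 2.99 ± 0.23 for H2-DMa (adjusted p = 2.23e-22). H2-DMb1, at 32.3 and 39.9 CPM, was also called higher, and no fold change is given because melanotrope-like cells had no UMI of it. Without library 1 the log2 fold change of H2-DMa was 3.73.

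In stem-like cells the class II transcripts were spread over many cells, and macrophage markers were low. The median stem-like cell held 4 class II UMIs in both libraries, and 44 of 175 and 41 of 168 cells held at least 10, against 2 of 3230 and 4 of 3253 somatotrope-like cells. UMIs of at least 2 of the genes Cd74, H2-Aa, H2-Ab1 and H2-Eb1 were in 56.57% and 56.55% of stem-like cells. The 10 macrophage markers summed to 13.6 and 11.3 CPM in stem-like cells (9 of 10 detected, Csf1r at 0), against 25.8 and 24.5 CPM in somatotrope-like cells. Per UMI of these markers there were 47.4 and 55.7 class II UMIs in stem-like cells, 0.853 and 1.53 in macrophage-like cells and 0.955 and 1.89 in somatotrope-like cells. Of 8 dendritic cell markers, 1 was detected in stem-like cells, at 1.56 and 2.70 CPM. The macrophage and dendritic cell markers were among the 116 genes that built the classes. Their low levels in stem-like cells, and the ratios above, were thus partly set by that construction. Without the 9 and 11 stem-like cells that held a UMI of a macrophage marker, a removal chosen after the data had been seen, the class II sum was 673 and 636 CPM, no lower than with them.

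The share of cells with a Cd74 UMI was compared at equal depth. With each cell thinned to 1000 UMIs outside the hormone genes, 32.6% of stem-like cells in library 1 (exact Clopper-Pearson 95% interval 25.7 to 40.0%) and 32.1% in library 2 (25.2 to 39.8%) held Cd74. In somatotrope-like cells, a type not known for class II and taken here as the background that free RNA gives, the shares were 0.606% (0.365 to 0.945%) and 1.24% (0.884 to 1.68%). The intervals of the 2 classes did not overlap, and they cover counting error only. Without thinning the shares were 72.0% and 79.2% in stem-like cells and 3.25% and 5.01% in somatotrope-like cells, at median depths of 9015 and 9165 UMIs in stem-like cells and 4905 and 5172 UMIs in somatotrope-like cells. Thinning left out 95 and 15 shallow somatotrope-like cells and no stem-like cell.

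**Figure D4:**
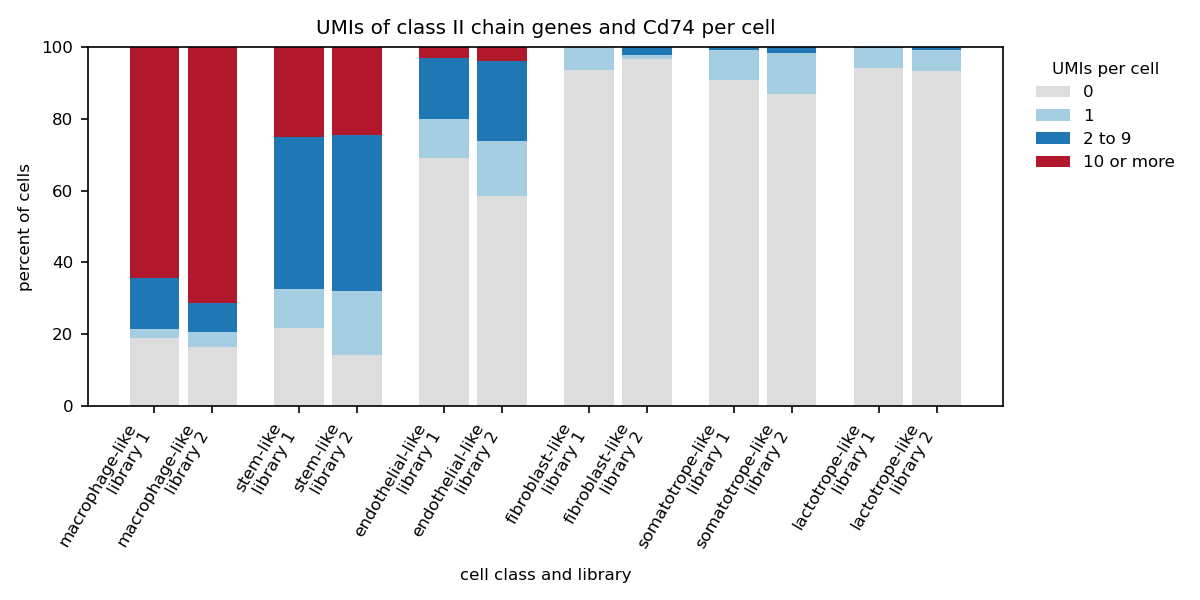
Percent of cells with 0, 1, 2 to 9 or at least 10 UMIs of class II chain genes and Cd74, by cell class and library. Cells with at least 10 made up 64.3% and 71.2% of macrophage-like cells, 25.1% and 24.4% of stem-like cells, 3.10% and 3.95% of endothelial-like cells and 0.0619% and 0.123% of somatotrope-like cells.

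With classes built from the marker genes, endothelial-like cells had a lower class II sum than stem-like cells and differed more between libraries. Cd74 had 85.9 and 199 CPM and H2-Ab1 55.9 and 135 CPM, and both rose against the hormone classes, by 4.00 ± 0.35 (adjusted p = 6.46e-07) and 5.13 ± 0.43 (adjusted p = 6.12e-07). Macrophage markers summed to 98.8 and 239.9 CPM in endothelial-like cells, 10 of 10 detected, and were higher in library 2, as class II was. There were 2.17 and 1.86 class II UMIs per macrophage marker UMI. Without the 23 and 39 endothelial-like cells that held such a marker, 192 and 388 CPM of class II remained. At least 10 class II UMIs were in 4 of 129 and 6 of 152 endothelial-like cells. In library 2, 2 of these cells held at least 50, and the highest held 101. Clustering on variable genes instead gave class II sums of 675 and 443 CPM in endothelial-like and 645 and 626 CPM in stem-like cells. Endothelial-like cells then had the higher sum in library 1 and the lower in library 2. Fibroblast-like cells had 5.33 and 7.54 CPM of Cd74 and no UMI of H2-Ab1.

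The transactivators themselves were scarce. Ciita, the master regulator of class II genes, had 0 and 4 UMIs in macrophage-like cells and 0 and 1 in stem-like cells. Nlrc5, its class I counterpart, had 10.0 and 10.5 CPM in endothelial-like cells (7 and 9 UMIs) and at most 7.32 CPM in the other 11 classes. Neither passed the filter on low counts, so neither was tested. H2-Ke6, the enzyme gene, lay between 42.8 and 158 CPM in every class and library. It fell by 1.09 ± 0.25 in macrophage-like cells (adjusted p = 0.000153), which is 0.06 from the median of all genes there, and did not pass with TMM scaling (adjusted p = 0.113).

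Among the hormone classes, somatotrope-like cells, the growth hormone producers, had the highest B2m, Psmb8 and Psmb10 on CPM outside the hormone genes. B2m had 942 and 816 CPM in somatotrope-like cells, against 302 and 301 CPM in lactotrope-like, 251 and 262 CPM in gonadotrope-like, 157 and 86.0 CPM in corticotrope-like and 102 and 91.3 CPM in melanotrope-like cells. Psmb8 had 97.7 and 77.3 CPM in somatotrope-like cells, against 13.7 to 29.3 CPM in the other hormone classes. Neither gene overlapped between somatotrope-like cells and another hormone class. B2m rose by 2.34 ± 0.11 (adjusted p = 9.73e-11), Psmb8 by 2.09 ± 0.09 (adjusted p = 7.58e-39), Psmb9 by 1.58 ± 0.14 (adjusted p = 1.49e-18), Psmb10 by 1.01 ± 0.08 (adjusted p = 1.59e-21) and Tap2 by 0.93 ± 0.11 (adjusted p = 5.48e-12) against the mean of the other hormone classes. The classical heavy chains moved less: H2-D1, at 176 and 163 CPM, did not pass the test (adjusted p = 0.101), and H2-K1, at 141 and 140.5 CPM, rose by 0.25 ± 0.08 (adjusted p = 0.00432) but did not pass in DESeq2 (adjusted p = 0.238). H2-DMa fell by 1.01 ± 0.33 (adjusted p = 0.00818), but without library 1 its value was 0.10. In all, 13 members were higher and 2 lower in somatotrope-like cells, where 46.4% of all genes tested were called, 26.5% higher and 19.9% lower.

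The place of somatotrope-like cells in the class I sum depended on the totals used. On CPM of all UMIs, hormone genes included, the class I sum was 578 and 527 CPM in somatotrope-like cells, against 517 and 495 CPM in lactotrope-like, 485 and 545 CPM in gonadotrope-like, 669 and 655 CPM in corticotrope-like and 422 and 413 CPM in melanotrope-like cells. On that scale corticotrope-like cells, not somatotrope-like cells, had the highest class I sum of the hormone classes.

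**Figure D5:**
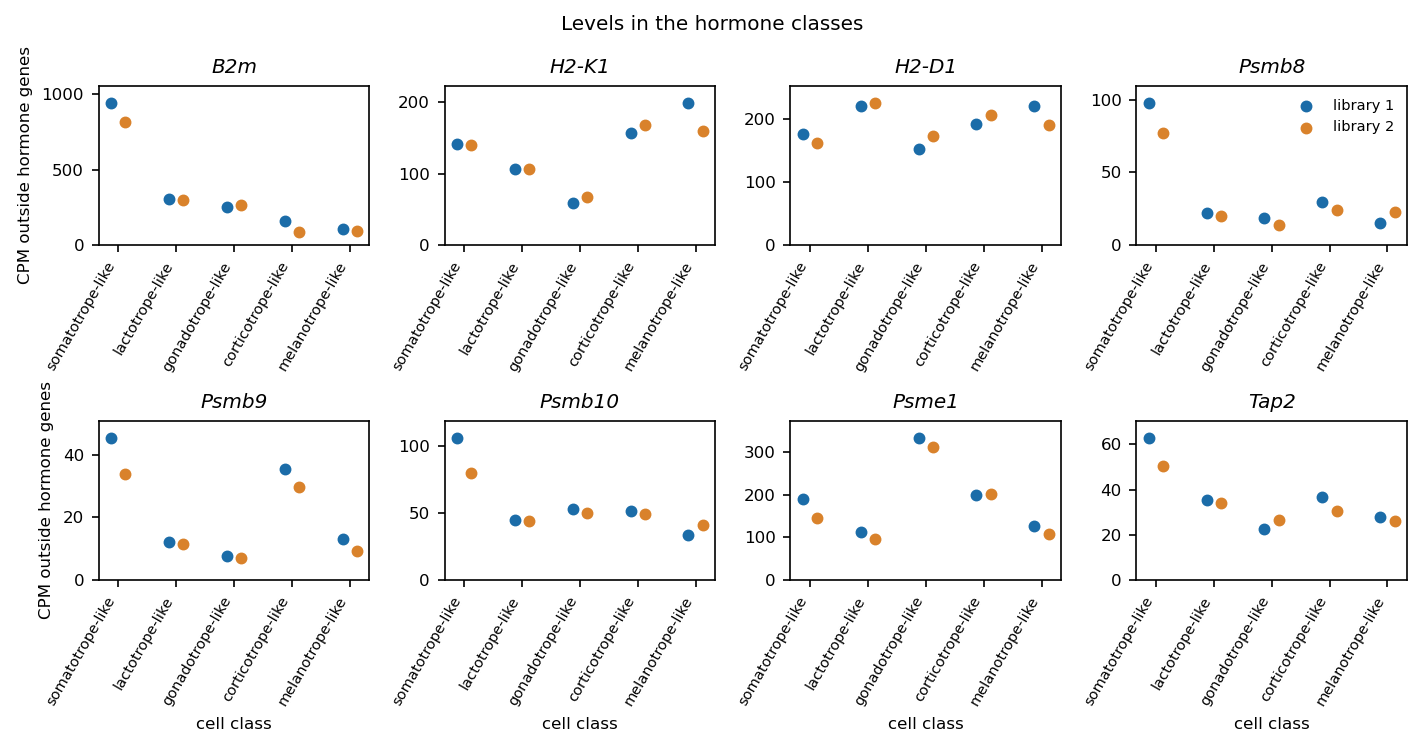
CPM outside the hormone genes of 8 members in the 5 hormone classes, with 1 point per library and axes starting at 0. B2m, Psmb8, Psmb10 and Tap2 are highest in somatotrope-like cells in both libraries, Psme1 is highest in gonadotrope-like cells, and H2-K1 is lowest in gonadotrope-like cells.

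Gonadotrope-like cells had 334 and 313 CPM of Psme1, a subunit of the proteasome activator PA28, against 95.05 to 202 CPM in the other hormone classes, and it rose by 1.19 ± 0.08 (adjusted p = 2.08e-24). H2-K1 in gonadotrope-like cells was at 59.5 and 66.9 CPM, below every other hormone class, and fell by 1.19 ± 0.10 (adjusted p = 6.39e-18). In all, 1 member was higher and 8 were lower in gonadotrope-like cells, where 35.3% of all genes tested were called, 19.5% higher and 15.8% lower. Corticotrope-like cells had 7 higher and 1 lower, where 30.1% of all genes tested were called, 18% higher and 12.1% lower. There Psmb9 was at 35.7 and 29.7 CPM and rose by 1.23 ± 0.23 (adjusted p = 7.3e-06), H2-Q4, a class I chain of the Q region, rose by 1.44 ± 0.20 (adjusted p = 2.08e-09), H2-K1 rose by 0.52 ± 0.10 (adjusted p = 1.53e-05), and B2m fell by 1.25 ± 0.17 (adjusted p = 3.73e-05).

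Melanotrope-like cells, which make Pomc peptides in the intermediate lobe, had 4 members higher and 4 lower, where 18% of all genes tested were called, 11.9% higher and 6.07% lower. B2m fell by 1.64 ± 0.21 (adjusted p = 3.47e-05), while H2-T23, at 37.2 and 50.2 CPM, rose by 1.27 ± 0.24 (adjusted p = 1.99e-05) and H2-K1 by 0.67 ± 0.12 (adjusted p = 3.82e-06). B2m lower, H2-K1 higher and H2-Ke6 higher were called in both melanotrope-like and corticotrope-like cells. H2-Eb2, a class II beta chain gene, had 27.9 and 21.3 CPM in melanotrope-like cells (15 and 14 UMIs) and 4.97 and 7.75 CPM in somatotrope-like cells. Class II chains and Cd74 had 25 and 23 UMIs in all in melanotrope-like cells, so H2-Eb2 made up most of them. H2-Eb2 had no UMI in macrophage-like, stem-like or endothelial-like cells, unlike the other class II chains. It was called higher in melanotrope-like cells, and no fold change is given because corticotrope-like and gonadotrope-like cells were at 0. Lactotrope-like cells had 2 members higher and 9 lower, where 41.7% of all genes tested were called, 16.5% higher and 25.2% lower. Psme1, at 113 and 95.05 CPM, fell by 0.87 ± 0.09 there (adjusted p = 2.1e-15), and B2m rose by 0.42 ± 0.12 (adjusted p = 0.0128).

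Other genes around the pathway were read from 6 lists, drawn up with earlier results of these data known. For 22 interferon-induced genes, the calls against the hormone classes were 21 higher and none lower (median log2 fold change 3.93) in endothelial-like cells, 18 higher and none lower (median log2 fold change 2.40) in stem-like cells, 18 higher and none lower (median log2 fold change 2.78) in fibroblast-like cells and 16 higher and 2 lower (median log2 fold change 2.84) in macrophage-like cells. The calls and medians over all genes in the same comparisons stand with the member counts above. Ifitm3, an antiviral membrane protein, had 2597 and 2147 CPM in stem-like cells, against 7.44 to 28.3 CPM in the hormone classes, and Isg15, a ubiquitin-like protein, had 91.3 and 94.5 CPM, against 0 to 9.43 CPM. Bst2, which tethers budding viruses, had 1001 and 1019 CPM in macrophage-like, 931 and 996 CPM in endothelial-like and 136 and 142 CPM in stem-like cells, against 5.58 to 23.7 CPM in the hormone classes. All 3 genes were among those that rose in stem-like cells. In somatotrope-like cells, the calls against the other hormone classes were 9 higher and 3 lower (median log2 fold change 0.53), the higher ones including Gbp3, a guanylate-binding protein, at 23.8 and 15.7 CPM against 1.52 to 5.28 CPM. Over all genes tested in that comparison, 26.5% were higher and 19.9% lower, with a median log2 fold change of 0.07. Ifng, the gene of interferon gamma itself, had no UMI in macrophage-like, endothelial-like or stem-like cells.

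For 5 interferon receptor genes tested, the calls were 5 higher and none lower (median log2 fold change 3.41) in macrophage-like cells, 5 higher and none lower (median log2 fold change 2.69) in endothelial-like cells and 4 higher and none lower (median log2 fold change 0.89) in stem-like cells. Ifngr1, a chain of the interferon gamma receptor, had 241 and 159 CPM in macrophage-like, 206 and 239.9 CPM in endothelial-like and 39.1 and 42.6 CPM in stem-like cells, against 4.56 to 15.7 CPM in the hormone classes, and rose in all 3. For 13 transcription factors of class I and class II genes, the calls were 9 higher and 1 lower (median log2 fold change 1.05) in endothelial-like cells. They were 7 higher and none lower (median log2 fold change 0.60) in stem-like cells and 5 higher and 2 lower (median log2 fold change 0.23) in macrophage-like cells. Beside both lists, 34.3% of all genes tested were higher and 23.8% lower in stem-like cells. The shares were 27.9% and 30.2% in endothelial-like and 11.9% and 38.0% in macrophage-like cells. Irf8, a factor of myeloid cells, had 337 and 378 CPM in macrophage-like cells and 51.6 and 76.1 CPM in endothelial-like cells, against 0.637 to 8.50 CPM in the hormone classes. In stem-like cells Irf8 was at 4.17 and 3.24 CPM and did not pass the test (edgeR, adjusted p = 0.0851).

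For 11 genes tested of class II proteolysis and costimulation, the calls were 10 higher and none lower (median log2 fold change 4.33) in macrophage-like cells. They were 9 higher and none lower (median log2 fold change 1.45) in fibroblast-like cells. In endothelial-like cells 6 were higher and 1 lower (median log2 fold change 1.51), and in stem-like cells 6 higher and 1 lower (median log2 fold change 0.73). Over all genes tested, 11.9%, 20.2%, 27.9% and 34.3% were higher in macrophage-like, fibroblast-like, endothelial-like and stem-like cells. The shares lower were 38.0%, 16.4%, 30.2% and 23.8%, and these shares also stand behind the lists that follow. Ctss, the cathepsin that trims the invariant chain in macrophages, had 6524 and 7122 CPM in macrophage-like cells and 0 and 3.78 CPM in stem-like cells. Ctsh, a cathepsin with aminopeptidase activity, had 35.5 and 25.4 CPM in stem-like cells, against 0 to 1.56 CPM in the hormone classes, and rose. The costimulators Cd86 and Cd40 had 273 and 256 CPM and 21.4 and 13.3 CPM in macrophage-like cells, against 0 and 0 CPM and 0.521 and 0.540 CPM in stem-like cells. Class II chains, Cd74 and H2-DM thus stood in stem-like cells beside Ctss, Cd86 and Cd40 at or near 0. The same list also held 6 genes called higher there (Ctsh, Cd9, Lgmn, Ctsz, Ctsd and Ifi30), and Ctsl was lower. For 11 genes of class I loading and constitutive peptide supply, they were none higher and 7 lower (median log2 fold change -0.71) in macrophage-like cells, where 38.0% of all genes were lower and their median was -1.15, 1 higher and 3 lower (median log2 fold change -0.12) in endothelial-like cells and 1 higher and 6 lower (median log2 fold change -0.31) in stem-like cells. For 5 tested genes with the class I fold outside the H2 names, they were 3 higher and none lower (median log2 fold change 3.07) in macrophage-like cells, 4 higher and none lower (median log2 fold change 3.17) in endothelial-like cells and 3 higher and none lower (median log2 fold change 1.41) in stem-like cells. Fcgrt, the neonatal receptor for immunoglobulin G, had 197 and 207 CPM in stem-like cells, against 0.831 to 31.6 CPM in the hormone classes, and rose.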

How the data were processed

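Single-cell libraries of 2 pituitary pools were analysed. The authors deposited whole-number UMI counts per gene and cell barcode; Cell Ranger, STAR and the mm10 build are named in the submitters' processing notes, and the sources used here do not say how strand or reads with several matches were handled. The barcode suffixes 1 and 2 were taken as pools 1 and 2 from the sample titles. From these deposited counts, cells with 500 or more UMIs, 250 or more genes and no more than 20% of UMIs from mitochondria were kept (6505 and 7060 cells), and the top 7.6% by a simulated-doublet score were removed (494 and 537 cells). Cells were clustered (Python 3.11.15, scikit-learn 1.9.0, igraph 0.11.9, leidenalg 0.10.2) on 116 marker genes with 12 components, 15 neighbours and Leiden resolution 1, so class names are rebuilt and not the authors'. Counts were summed per class and library into 24 columns, with at least 20 cells in each, and tested with edgeR 4.0.16 (R 4.3.3) with the library as a block, since both libraries contribute all classes and each library is a shared pool of glands. Library size was the total outside 7 hormone genes, and a call is a Benjamini-Hochberg adjusted p under 0.05 over 12092 genes (11 residual degrees of freedom). Alternatives were TMM scaling, totals of all genes with TMM scaling, DESeq2 1.42.0, no filter on low counts, doublets kept, other clusterings, at most 10% mitochondrial UMIs, no block, each library alone and other thinning depths. The scripts were tested on simulated data. Members at 50 CPM or more in any class, and a fixed core of the pathway, are named; listed genes are examples with large changes or known roles. The members and lists were chosen with earlier results of these data known. Intervals cover counting error only.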

Additional observations from a re-analysis of the deposited data

Results flagged for a closer look

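A cluster of 13 and 8 cells in libraries 1 and 2 entered no comparison because no class name held for it. Its leading genes were Cd52, Tyrobp, Irf8, Lsp1, Fcer1g and Ctss. Its class II sum was 38620 CPM in library 1 and 12367 CPM in library 2, against 32528 and 57833 CPM in macrophage-like cells and at most 46.5 CPM in any hormone class, so in library 1 it was above the macrophage-like class. Dendritic cell markers summed to 918 CPM in library 1, with 7 of 8 detected and Zbtb46 at 0, and to 0 in library 2. Macrophage markers summed to 5575 and 5846 CPM. Among cells removed as likely doublets, 9 in library 1 and 15 in library 2 held at least 10 class II UMIs, and they are in no value above.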

How the results depend on the processing

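Of 164 log2 fold changes of named members, most kept their direction and side of the threshold: 148 in DESeq2, 155 with TMM scaling, 155 with totals of all genes and TMM scaling together, 155 with doublet calls kept, and 162 with no replicate block. Without the block, the counts of members called were unchanged except 4 higher and 3 lower in melanotrope-like cells and 12 higher and 2 lower in somatotrope-like cells. With at most 10% mitochondrial UMIs the pituicyte-like class had too few cells and gave no value. With doublet calls kept, 7 members were called in lactotrope-like cells in place of 11. In macrophage-like against endothelial-like cells the sign turned for Psme2 with TMM scaling (0.16), with totals of all genes and TMM scaling together (0.17) and in DESeq2 (0.40), and in DESeq2 for Tapbp (0.14) and Psmb10 (0.033). H2-DMa in somatotrope-like cells was 0.10 without library 1 and -1.18 without library 2. Clustering on variable genes gave a log2 ratio of class I over class II of 4.97 in endothelial-like cells, against 5.77. The mean share of cells with Cd74 was 42.2% in stem-like and 1.88% in somatotrope-like cells thinned to 2000 UMIs, and 75.6% and 4.13% without thinning. The cause was not tested, except that deeper cells show more UMIs by construction. Library 1 and library 2 alone gave ratios of -0.94 and -1.78 in macrophage-like, 2.48 and 2.40 in stem-like and 6.27 and 5.27 in endothelial-like cells. Libraries, not animals, set the error, and the macrophage-like and pituicyte-like classes rest on few cells.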
